A study of Homo sapiens with 8 samples.

Results

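The binding sites of the transcription factor SOX2 were compared between NT2/D1, a clonal human embryonal carcinoma line derived from a testicular tumour, and H9, a human embryonic stem cell line. The compared items were the 38423 SOX2 peaks listed for NT2/D1 and the 19349 SOX2 peaks listed for H9, which together are 57772 of the 201619 peaks of the series. Peaks of the lists were merged wherever they overlapped by at least 1 bp. This gave 54558 regions, of which 3136 were shared (5.75%), 35211 held NT2/D1 peaks alone and are called NT2/D1-only (64.5%), and 16211 held H9 peaks alone and are called H9-only (29.7%).

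The study used chromatin immunoprecipitation with sequencing (ChIP-seq), in which sonicated chromatin bound to a factor is pulled down with an antibody on magnetic beads and the attached DNA is sequenced. SOX2, OCT4 and NANOG libraries and an IgG control were labelled for each line, by line and cell type alone, and no treatment, passage, growth condition or genetic change was given. Each line had 1 SOX2 library, so no difference between the lines can be set against a replicate error, and no test between them was possible. Intervals below are 95% Wilson intervals, which cover counting error only.

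SOX2 is a high-mobility-group box factor that binds a short A/T-rich sequence in the minor groove and bends DNA. In pluripotent cells it binds next to OCT4, a POU factor encoded by POU5F1, on composite elements in which a SOX site abuts an octamer-type site. It is known for the upkeep of pluripotency in embryonic stem cells and embryonal carcinoma cells, and for neural progenitor identity later in development.

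PIPOX and NANOG show such an element at gene starts with different outcomes in these lists, and their promoters are given for that reason. The 250 bases before the RefSeq start are printed 5′ to 3′ on the gene's strand from GRCh38.p14, with PIPOX at chr17:29042891-29043140 (+) and NANOG at chr12:7789152-7789401 (+). Capitals mark the match to the composite motif (ATTGT, any base N, then ATGCAAA), searched on both strands, and both matches read on the opposite strand.
PIPOX: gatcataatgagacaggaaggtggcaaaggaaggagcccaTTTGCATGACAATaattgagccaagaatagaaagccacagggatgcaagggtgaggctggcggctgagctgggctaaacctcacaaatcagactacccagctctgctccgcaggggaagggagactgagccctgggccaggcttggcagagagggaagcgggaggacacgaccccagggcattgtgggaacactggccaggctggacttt
NANOG: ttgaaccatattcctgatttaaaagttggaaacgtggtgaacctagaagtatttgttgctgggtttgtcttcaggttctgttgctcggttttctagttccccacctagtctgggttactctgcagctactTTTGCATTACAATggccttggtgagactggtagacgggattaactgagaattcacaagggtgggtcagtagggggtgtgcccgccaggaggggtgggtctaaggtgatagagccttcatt

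The composite motif was found in 4 of 35116 RefSeq promoter windows of this length (0.0114%), those of LINC02359, NANOG, NRARP and PIPOX. The match began 210 bases before the start in PIPOX and 120 bases before it in NANOG. At PIPOX, which encodes a peroxisomal oxidase, a SOX2 peak overlapped the transcription start site (TSS) in both lines, with 37 tags in NT2/D1 (chr17:27369703-27370248 in hg19, the build of the lists) and 120 tags in H9 (chr17:27369570-27370295). A tag is a sequenced ChIP fragment placed in the peak. At NANOG, the homeobox gene of the pluripotency network, no SOX2 peak was assigned within 50 kb in NT2/D1, whereas H9 had a peak over the TSS with 89 tags and a 12.9-fold enrichment (chr12:7941529-7942226). No SOX2 peak of either line was assigned to LINC02359 or NRARP within 1 kb. The RefSeq start is from another build than the peaks, so the distance between the motif and a summit was not measured, and a match is a description of the letters and not a shown binding site.

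The libraries differed in ways that touch every count below. The NT2/D1 SOX2 library had 23160564 unique tags and was called against an IgG library of 2937004, whereas the H9 SOX2 library had 72186968 and its IgG library 58012070. The band width set for the peak caller was 200 in NT2/D1 and 2000 in H9, and the median peak held 11 tags over 380 bp in NT2/D1 and 46 tags over 633 bp in H9. A region called in 1 line is therefore a region where a peak was listed in that line, and the lack of a peak does not show the lack of binding. Fewer occupied cells and weaker occupancy per cell also cannot be told apart in bulk ChIP-seq. The tags, folds and scores of peaks come from the authors and serve here for ranks within a list. The part of depth and calling settings in the results was not tested.

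Shared regions took in 3212 of the NT2/D1 peaks, or 8.36% (8.09 to 8.64), and 3138 of the H9 peaks, or 16.2% (15.7 to 16.7). With the NT2/D1 list cut to the 19349 peaks of highest score, they were 13.4% of NT2/D1 and 13.1% of H9 peaks. Where peaks were shared they lay at nearly the same base. The median distance from a shared peak's summit to the nearest summit of the other list was 28 bp in NT2/D1 and 27 bp in H9, and 88.5% of the shared NT2/D1 peaks and 90.5% of the shared H9 peaks had a summit of the other line within 200 bp. Peaks outside shared regions were far from the other list. The nearest H9 summit lay a median of 57.7 kb from an NT2/D1-only peak, and the nearest NT2/D1 summit 36.9 kb from an H9-only peak. A summit of the other list lay within 1000 bp of 266 NT2/D1-only peaks (0.755%) and of 220 H9-only peaks (1.36%), so few of them were near misses of the overlap rule.

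Shared peaks were the stronger peaks of each list. In NT2/D1 a shared peak held a median of 19 tags (quartiles 13 and 29), against 11 (9 and 16) in NT2/D1-only peaks, and its median rank by tags was percentile 81.8 of the list, against 45.3. In H9 a shared peak held 78.5 tags (52 and 121), against 43 (32 and 60) in H9-only peaks, with median percentiles of 80.3 and 44.7. Over the whole list shared peaks were also wider, with a median of 470.5 bp against 374 bp in NT2/D1 and 735.5 bp against 617 bp in H9. At like tag number they were narrower in all but the lowest tag class of each list. The medians were 481 against 550 bp at 16 to 20 NT2/D1 tags, and 665 against 715 bp at 50 to 69 H9 tags. In the lowest classes they were 266 against 265 bp at 8 NT2/D1 tags and 464 against 457 bp at 16 to 29 H9 tags. The median fold enrichment was 8.33 in shared and 6.25 in NT2/D1-only peaks, and 8.19 in shared and 4.91 in H9-only peaks.

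The share that was shared grew with tags in both lists. Of NT2/D1 peaks with 8 tags, the fewest in that list, 2.60% were shared (2.11 to 3.20). The share was 11.01% at 16 to 20 tags, 34.8% at 30 to 49 tags and 58.4% (53.1 to 63.5) at 50 tags or more. Of H9 peaks with 16 to 29 tags, 3.21% were shared (2.62 to 3.92). The share was 16.6% at 50 to 69 tags, 42.1% at 100 to 149 tags and 60.6% (55.6 to 65.4) at 200 tags or more. In the highest tag class of each list, many peaks thus had no counterpart.

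**Figure D1:**
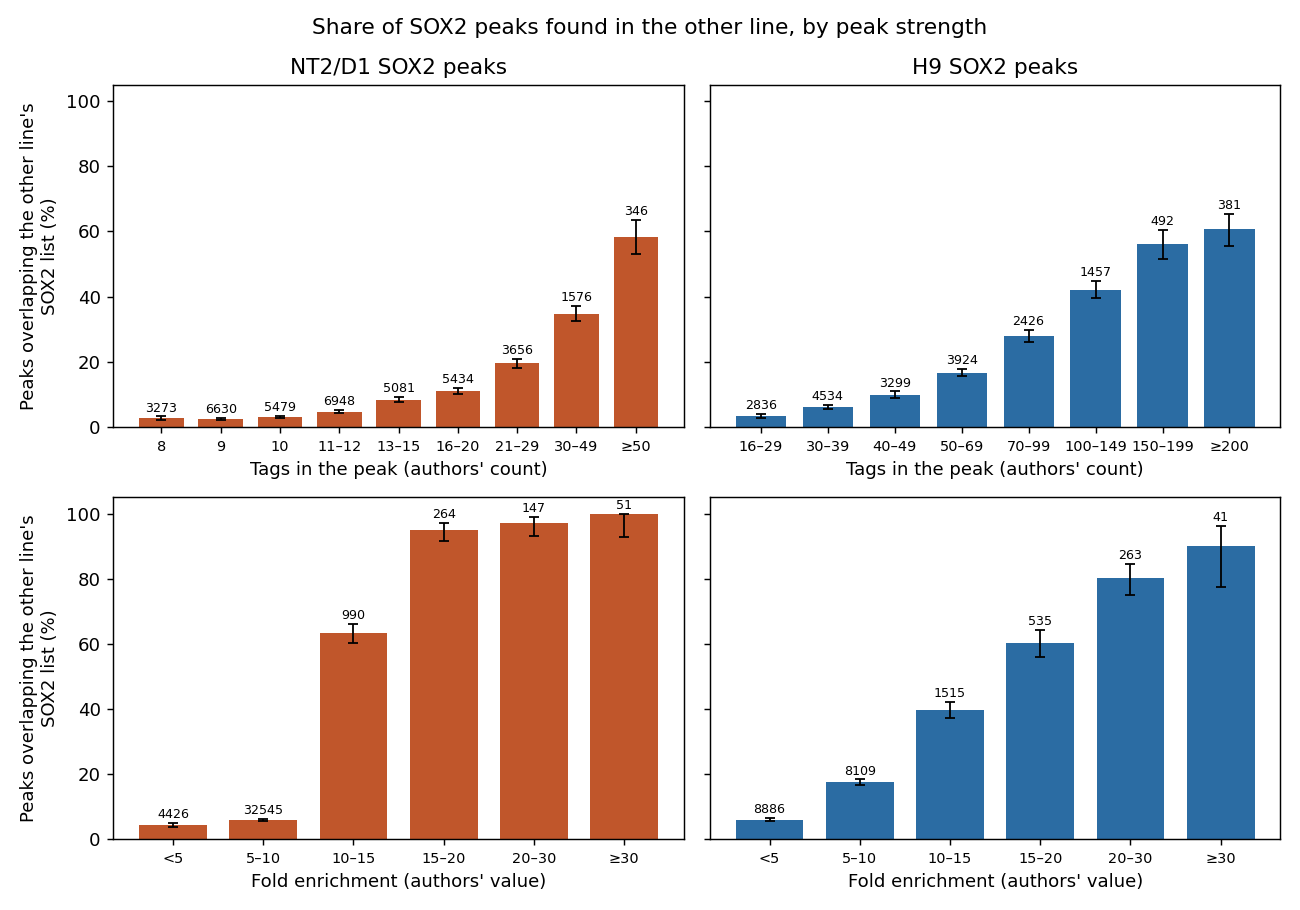
Bars give the percentage of NT2/D1 SOX2 peaks (left) and H9 SOX2 peaks (right) that overlap a SOX2 peak of the other line, by tags in the peak (upper row) and by fold enrichment (lower row), with 95% Wilson intervals and the number of peaks above each bar. By tags the share reached 58.4% in NT2/D1 and 60.6% in H9, whereas by fold it reached 100% of 51 NT2/D1 peaks and 90.2% of 41 H9 peaks.

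Fold enrichment, the authors' ratio of ChIP tags over the local control, gave higher shares than tags in its highest classes, above all in NT2/D1. Over the whole list it did not rank shared peaks higher, since 74.9% of the shared NT2/D1 peaks were in the upper 50% by fold and 81.9% by tags, and in H9 80.2% by fold and 81.1% by tags. Most shared NT2/D1 peaks had a fold under 10. Of NT2/D1 peaks with a fold under 5, 4.34% were shared (192 of 4426), and of those with a fold of 5 to 10, 5.99% (1948 of 32545). At a fold of 10 to 15 the share was 63.3% (60.3 to 66.3), at 15 to 20 it was 95.1% (251 of 264 peaks), and at 30 or more all 51 peaks were shared. In H9 the step was more gradual, with 6.12% under 5, 17.6% at 5 to 10, 39.6% at 10 to 15, 60.2% at 15 to 20, 80.2% at 20 to 30 and 90.2% (37 of 41) at 30 or more. Peaks with many tags that were not shared were wide and of low fold. At 50 tags or more in NT2/D1, shared peaks had a median width of 760 bp and a fold of 17.6, whereas NT2/D1-only peaks had 1513 bp and 4.88. At 200 tags or more in H9, shared peaks had 1269 bp and a fold of 20.8, whereas H9-only peaks had 2898 bp and 4.46.

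Within the shared regions, the ranks of the lines were loosely related. Over the 3136 shared regions, taking the peak with most tags of each list, Spearman's rho between the lines was 0.390 for tags, 0.438 for score, 0.444 for fold and 0.170 for width. Regions are not independent replicates, and these values describe the pair of libraries. Both peaks were in the upper 10% of their lists by tags in 568 regions (18.1%). In 117 regions the NT2/D1 peak was in the upper 10% while the H9 peak was in the lower 50%, and the reverse held in 80.

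**Figure D2:**
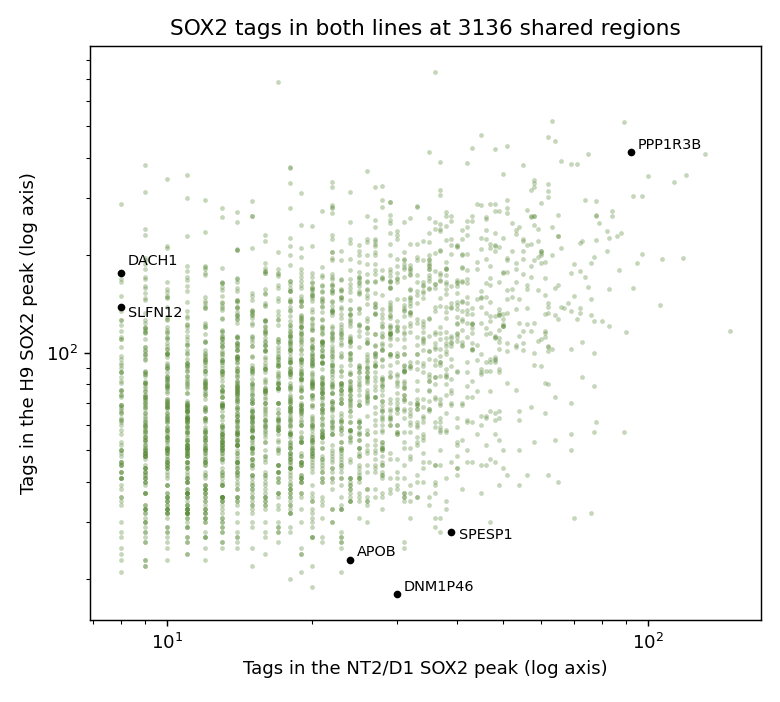
Each point is 1 of 3136 shared regions, placed by the tags of its NT2/D1 SOX2 peak (horizontal, log axis) and of its H9 SOX2 peak (vertical, log axis), with some of the named regions in black. PPP1R3B lies high in both lists with 92 and 416 tags, DNM1P46 has 30 NT2/D1 tags and 18 H9 tags, and DACH1 has 8 NT2/D1 tags and 177 H9 tags.

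The regions named from here by rank had peaks no wider than the 99th percentile of their list, 1147.8 bp in NT2/D1 and 1974.5 bp in H9. This limit left out shared regions of higher rank than some of those named, such as those near MIR9-2HG, SMAD7 and DUSP6 described further on, which lay within 10 kb of a TSS. Within the limit, 9 of the 10 shared regions ranked highest by the lower of their percentiles lay over 40 kb from the TSS in NT2/D1. The first was 113 kb from the TSS of PPP1R3B, a glycogen-targeting phosphatase subunit gene, and held 92 tags in NT2/D1 and 416 in H9. Next within the limit were a region 626 kb from NAALADL2, with 71 NT2/D1 tags and 384 H9 tags, and a region 402 kb from QTMAN, with 69 and 382. The region nearest FBRS lay 13.4 kb past its TSS and held 66 NT2/D1 tags and 391 H9 tags (chr16:30689218-30689984 in NT2/D1). A region 93.7 kb from PRDM14, a zinc finger regulator of pluripotency, held 64 NT2/D1 tags and 452 H9 tags, with folds of 34.0 and 38.6. The other regions of this set were nearest MME, ETV6, ITPRID1, KCNJ2 and ZFP64, at distances of 40.3 kb (ETV6) to 863 kb (KCNJ2) in NT2/D1. ETV6 encodes an ETS-family repressor, and its region held 120 NT2/D1 tags and 355 H9 tags (chr12:11761848-11762502 in NT2/D1). Each of these 10 regions overlapped OCT4 and NANOG peaks in both lines, as did most shared peaks of like strength. Of all shared NT2/D1 peaks with 50 tags or more, 99.5% overlapped an NT2/D1 OCT4 peak and 91.1% an NT2/D1 NANOG peak. Of shared H9 peaks with 200 tags or more, 99.6% overlapped an H9 OCT4 peak and 99.1% an H9 NANOG peak.

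Some shared regions stood high in 1 list and low in the other. The peaks ranked far higher in NT2/D1 were nearest DNM1P46, LRRC8A, TMTC1, APOB and SPESP1. The region 5.44 kb past the TSS of LRRC8A, which encodes a subunit of a volume-regulated anion channel, held 31 tags with a fold of 14.8 in NT2/D1 and 25 tags with a fold of 4.4 in H9 (chr9:131650217-131650646 in NT2/D1). The peaks ranked far higher in H9 were nearest DACH1, SOX4, MEX3C, C14orf132 and SLFN12, and each of the 5 held 8 tags in NT2/D1, the lowest count of that list. At SOX4, a SOX-family gene, the region 5.55 kb past the TSS held 8 NT2/D1 tags with a fold of 6.25 and 169 H9 tags with a fold of 15.9. At DACH1, which encodes a developmental co-repressor, the H9 peak had 177 tags and a fold of 17.9, 253 kb from the TSS.

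Within the width limit, the NT2/D1-only peaks with most tags included several of low fold. They were nearest LINC00588, PDE4DIP, LRRN2, H3P6, ZNF267, RAD54L, GPR162, PTPRN2, FAM72D and VASH2, with 51 to 66 tags. A wider NT2/D1-only peak near PODXL, outside the limit, had 91 tags and a fold of 4.61. Folds were 3.40 at FAM72D, 3.42 at LINC00588 and 4.53 at PDE4DIP. FAM72D and PDE4DIP lie in a duplicated part of chromosome 1 with near-identical copies, so the placement of tags there is uncertain. ZNF267 had 56 tags and a fold of 23.8 (chr16:31854052-31854598, 30.5 kb upstream of its TSS). LRRN2 had 60 tags and a fold of 15.7 (chr1:204683898-204684923, 29.3 kb upstream). Both peaks also overlapped NT2/D1 OCT4 and NANOG peaks.

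High-fold peaks without an H9 counterpart were few in NT2/D1. A fold of 15 or more, a limit chosen after the values were seen, was reached by 17 NT2/D1-only peaks and by 445 shared NT2/D1 peaks. The 17 were led by peaks nearest TPRA1 (36 tags, fold 25.5), ZNF267, FOXP1 (45 tags, fold 22.3), MC3R (24 tags, fold 21.7) and PXDN (37 tags, fold 18.7). FOXP1 encodes a forkhead factor, and its peak lay 620 kb past the TSS. Of the 17 peaks, 14 overlapped an NT2/D1 OCT4 peak, 14 an NT2/D1 NANOG peak, 2 an H9 OCT4 peak and 10 an H9 NANOG peak. An H9 peak of OCT4 or NANOG thus lay at 12 of the 17 sites, although no H9 SOX2 peak was listed there.

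Within the width limit, the H9-only peaks with most tags had folds above 10, whereas the median over all H9-only peaks of 200 tags or more, wide ones included, was 4.46 as given above. The 10 peaks within the limit were nearest SLC7A5P2, SLC7A5P1, EDNRB, S100G, SLC7A5, MAOA, OLFM4, GPR176, SLITRK1 and GULP1, with 266 to 366 tags and folds from 11.2 (GULP1) to 21.99 (EDNRB). EDNRB encodes the endothelin receptor type B, which acts in neural crest cells, and its region lay 64.0 kb past the TSS (chr13:78427452-78428928). All 10 overlapped H9 OCT4 and NANOG peaks, 2 (S100G and GULP1) overlapped an NT2/D1 OCT4 peak and 3 (EDNRB, MAOA and GPR176) an NT2/D1 NANOG peak. At SLC7A5, which encodes a large neutral amino acid transporter, H9 peaks with 273 and 132 tags lay 0.373 kb upstream and 4.33 kb downstream of the TSS. The same pair of positions recurred at its pseudogenes SLC7A5P2 (366 and 143 tags) and SLC7A5P1 (305 and 98 tags), whose sequence is nearly that of SLC7A5, so tags of the 3 loci may have been exchanged. NT2/D1 had 1 peak within 50 kb of these genes, at SLC7A5, with 12 tags.

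By fold, the H9-only peaks were led by regions nearest TENM4 (209 tags, fold 38.8), RIOK2 (218 tags, fold 33.8), RBFOX1 (244 tags, fold 33.3) and ADAM29 (185 tags, fold 30.7). TENM4 encodes a teneurin and RBFOX1 a neuronal splicing factor, and their regions lay 880 and 432 kb from the TSS. A fold of 20 or more, also chosen after the values were seen, was reached by 56 H9-only and 248 shared H9 peaks. Of the 56, 29 overlapped an NT2/D1 OCT4 peak (51.8%) and 18 an NT2/D1 NANOG peak (32.1%).

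OCT4 and NANOG peaks lay at most shared SOX2 regions and at few NT2/D1-only regions. NT2/D1 OCT4 peaks overlapped 73.5% of shared NT2/D1 peaks (71.9 to 74.97), 5.41% of NT2/D1-only peaks (5.18 to 5.65) and 23.6% of H9-only peaks (22.997 to 24.3). NT2/D1 NANOG peaks overlapped 51.0%, 11.3% and 4.61% of the same classes. H9 OCT4 peaks overlapped 77.7% of shared H9 peaks (76.2 to 79.1), 2.02% of NT2/D1-only peaks (1.88 to 2.17) and 47.4% of H9-only peaks (46.7 to 48.2), and H9 NANOG peaks 88.8%, 3.46% and 60.3%. A peak of OCT4 or NANOG of the same line was thus present at 15.2% of NT2/D1-only peaks (14.8 to 15.5) and at 70.9% of H9-only peaks (70.2 to 71.6).

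These gaps were also present among peaks of like tag number. At 30 to 49 tags, 91.6% of shared NT2/D1 peaks (89.0 to 93.6) and 17.5% of NT2/D1-only peaks (15.3 to 19.95) overlapped an NT2/D1 OCT4 peak. At 8 tags the shares were 56.5% (45.9 to 66.5) and 2.04% (1.60 to 2.59). At 100 to 149 tags, 86.6% of shared H9 peaks (83.7 to 89.1) and 49.7% of H9-only peaks (46.3 to 53.1) overlapped an NT2/D1 OCT4 peak. Own-line OCT4 differed less in that bin, at 92.8% of shared and 87.7% of H9-only peaks. The SOX2 and NANOG lists of NT2/D1 were called against the same IgG library, as were all H9 lists, and the part of a shared control in these overlaps was not tested. The NT2/D1 OCT4 list was called against a control of another size, with 6479071 unique tags. Its ChIP library had 10218752 unique tags, against 19669139 for NT2/D1 NANOG, and the model fold set for the caller was 5 against 3. NT2/D1 OCT4 and NANOG shares are therefore not like for like, and the part of these settings was not tested. The sample source names exchange the NT2/D1 OCT4 and NANOG libraries, and titles were followed here. With them exchanged, OCT4 would take the values given for NANOG, at 51.0%, 11.3% and 4.61%.

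**Figure D3:**
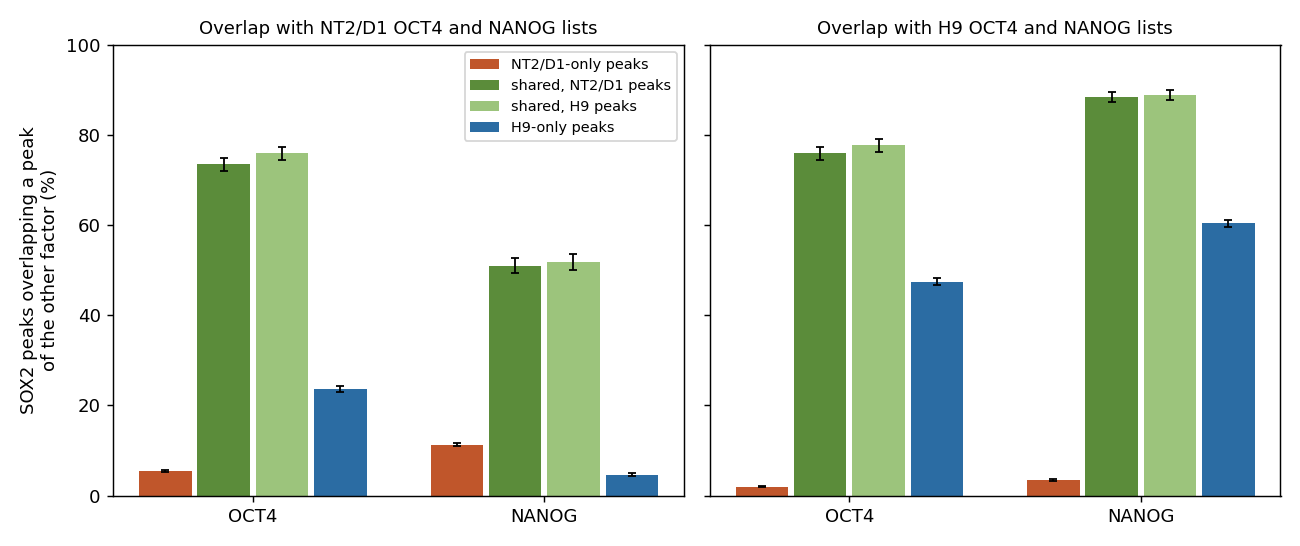
Bars give the percentage of SOX2 peaks of each class that overlap an OCT4 or NANOG peak of NT2/D1 (left panel) or H9 (right panel), with 95% Wilson intervals. NT2/D1-only peaks are the lowest bars except against NT2/D1 NANOG, where they stand at 11.3% and H9-only peaks at 4.61%.

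Distance to gene starts was compared between the classes near promoters and in gene deserts. Within 1 kb of a TSS lay 3.33% of shared NT2/D1 peaks (2.76 to 4.01) and 3.45% of NT2/D1-only peaks (3.26 to 3.64), and in the H9 list 3.89% of shared (3.27 to 4.62) and 4.48% of H9-only peaks (4.17 to 4.81). These intervals overlapped in both lists, but in the upper 50% of each list by score those of NT2/D1 did not, at 2.64% of shared (2.04 to 3.41) and 3.81% of NT2/D1-only peaks (3.54 to 4.11). The order also turned with tags in NT2/D1, with 7.06% of shared and 2.76% of NT2/D1-only peaks within 1 kb at 8 tags, and 3.47% and 8.33% at 50 tags or more. The median distance was 69.3 kb for shared and 53.5 kb for NT2/D1-only peaks, and 68.9 kb for shared and 76.4 kb for H9-only peaks. More than 500 kb from any listed TSS lay 7.50% of shared (6.64 to 8.47) and 5.85% of NT2/D1-only peaks (5.61 to 6.10) in the NT2/D1 list. In the H9 list it was 7.49% of shared (6.62 to 8.46) and 11.3% of H9-only peaks (10.8 to 11.8). By median distance, NT2/D1-only peaks were thus the class nearest to gene starts and H9-only peaks the farthest. Among NT2/D1-only peaks the median distance was 66.5 kb at 8 tags and 33.5 kb at 50 tags or more.

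In 24 shared regions the peaks of both lines overlapped the TSS of the same gene. Those ranked highest were HESX1, a homeobox gene of the forebrain and pituitary, NTMT2, CER1, a secreted NODAL and BMP antagonist, MTF2, a Polycomb-associated gene, PIPOX and TIMP4. HESX1 held 50 tags in NT2/D1 (chr3:57233710-57234400, fold 8.87) and 178 in H9 (fold 15.7). CER1 held 27 NT2/D1 tags and 200 H9 tags, and MTF2 held 26 and 175. Others were at genes of translation and small RNAs, such as RPSA, EIF4A2, VTRNA1-3 and SNORD74, with H9 folds of 2.96 to 5.44. RPSA has many processed copies, so its tags are uncertain. RefSeq promoter windows matched 17 of the 24 genes. ACAATG, a short SOX-type sequence, was present on either strand in 6 of the 17 (35.3%), and in 9.29% of all 35116 windows. ACAAAG, another such sequence, was present in 4 (23.5%), against 13.7% of all windows. The octamer ATGCAAAT was present in 3 (17.6%), against 1.63%, and in PIPOX it overlaps the composite match. These are counts of letters in 17 windows chosen by their peaks.

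Genes with SOX2 peaks of both lines mostly had them at different places. Each peak was assigned to the nearer of its listed genes if that TSS lay within 50 kb. Of 15948 genes listed beside a SOX2 peak of either line, 8894 (55.8%) had an NT2/D1 peak, 5419 (34.0%) an H9 peak and 3180 (19.9%) peaks of both. The 3180 were 35.8% of the genes with an NT2/D1 peak, near the 34.0% of all listed genes that had an H9 peak. They were 58.7% of the genes with an H9 peak, near the 55.8% of all listed genes that had an NT2/D1 peak. A gene with a peak of 1 line thus had a peak of the other about as often as any listed gene. Genes beside no SOX2 peak are not among the listed genes, which raises both baseline shares. The comparison therefore cannot show whether the lines share genes more often than genes at large would. A shared region was assigned to 1188 genes (7.45%), or 37.4% of the genes with peaks of both lines. For the other 1992 genes the closest pair of summits lay a median of 12.97 kb apart (quartiles 5.44 and 26.9 kb). Within 5 kb of the TSS, 492 genes had peaks of both lines and 292 of them a shared region (59.3%).

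Some genes had several shared regions within 50 kb, with 4 at 2 genes and 3 at 16 genes. FOXD3, a forkhead gene of pluripotency and neural crest, and INTS10, an Integrator subunit gene, had 4 each. The genes with 3 were AFF3, CACHD1, CRYGN, FAM124A, HPCAL4, HSD17B4, PRICKLE1, RBPMS, TMPRSS11E, ZNF385B, BCOR, a Polycomb co-repressor, GLI3, a Hedgehog effector, ID1, a BMP target that inhibits basic helix-loop-helix factors, ETS1, ZEB2 and ZFHX3. INTS10 had 4 peaks in each line within that distance and all were shared, whereas GLI3 had 4 in each line with 3 shared regions. At FOXD3 the 4 shared regions held 48, 22, 21 and 18 tags in NT2/D1 and 95, 225, 108 and 130 tags in H9, in the same order of regions. The region with most NT2/D1 tags there was thus the one with fewest H9 tags.

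The core pluripotency genes carried shared regions in 20 of 32 cases (62.5%), where the value over all listed genes was 7.45%. Core genes differ from other genes in the span of DNA over which peaks are assigned to them, and the list was not matched for that. This list and the others below were also chosen with earlier results of these data known. Their shares are therefore descriptions and not independent evidence. An NT2/D1 peak lay near 26 of the 32 and an H9 peak near 26, against 55.8% and 34.0% of all listed genes. Of the peaks near these genes, 30 of 68 NT2/D1 peaks were shared (44.1%), where the value for all NT2/D1 peaks within 50 kb of a TSS was 7.42%. In H9, 28 of 76 were shared (36.8%), where it was 16.7%. Of the 28 shared regions near the 20 genes, 24 overlapped an NT2/D1 OCT4 peak, 21 an NT2/D1 NANOG peak, 26 an H9 OCT4 peak and 28 an H9 NANOG peak. Over all shared NT2/D1 peaks the shares were 73.5%, 51.0%, 76.0% and 88.5% in that order, and over all shared H9 peaks 75.9%, 51.8%, 77.7% and 88.8%. These shares count the peak of a single line, whereas a core region counts if the peak of either line overlaps, so they are not like for like. Such overlap was thus common at shared regions in general, and whether it was more common at core genes was not tested.

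**Figure D4:**
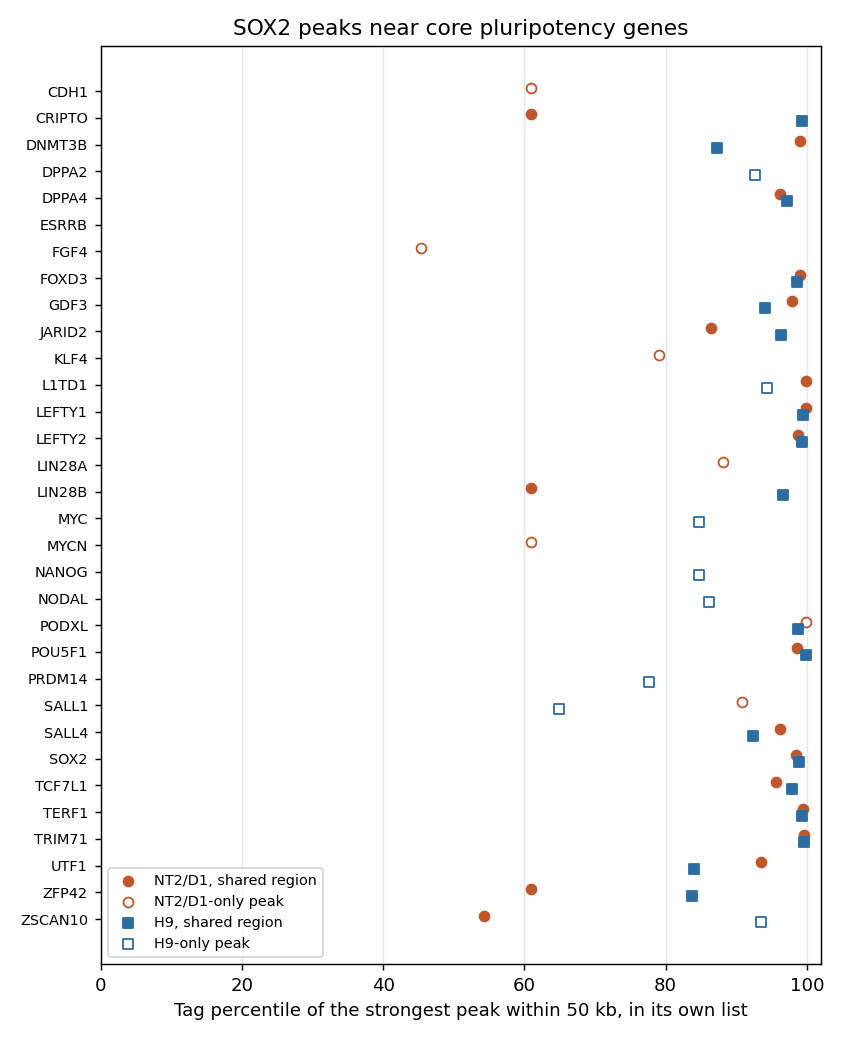
For each of 32 core pluripotency genes, the strongest SOX2 peak within 50 kb is placed by its tag percentile in its own list, as circles for NT2/D1 and squares for H9, filled where that peak lies in a shared region. FOXD3, LEFTY1, LEFTY2, PODXL, POU5F1, SOX2, TERF1 and TRIM71 stand above the 98th percentile in both lists, with the PODXL circle unfilled, and DPPA2, MYC, NANOG, NODAL and PRDM14 have squares without circles.

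POU5F1 and SOX2, which encode OCT4 and SOX2, had shared regions, and NANOG did not. At POU5F1 the region 1.24 kb upstream of the TSS held 43 tags (fold 19.2) in NT2/D1 (chr6:31139687-31140530) and 429 tags (fold 24.3) in H9. POU5F1 has several pseudogenes, so some of its tags may belong to them. SOX2 had shared regions on its own gene's flank, 3.94 kb from the TSS with 29 NT2/D1 tags and 167 H9 tags, and 44.7 kb from it with 42 and 245. The fold order of these regions differed: 18.9 and 4.90 in NT2/D1 for the near and the far region, and 13.9 and 19.0 in H9. DNMT3B, a de novo DNA methyltransferase gene, had its strongest region 0.997 kb from the TSS with 48 tags (fold 39.6) in NT2/D1 and 97 tags (fold 15.2) in H9. The strongest shared regions at SALL4, TCF7L1, TERF1, TRIM71, UTF1 and DPPA4 held 27 to 62 NT2/D1 tags and 87 to 316 H9 tags. A weaker shared region at SALL4 held 11 and 70. Where a gene of a later list had several shared regions, the tags given are those of the strongest. Shared regions at CRIPTO, LIN28B, ZFP42 and ZSCAN10 held 12 or 13 tags in NT2/D1, against 280, 165, 86 and 66 tags in H9. Their NT2/D1 percentiles were 54.3 at ZSCAN10 and 61.0 at the others, below the median percentile of shared NT2/D1 peaks, 81.8.

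Other core genes had peaks of 1 line. DPPA2, MYC, NANOG, NODAL and PRDM14 had an H9 peak and no NT2/D1 peak within 50 kb. MYC had 89 H9 tags 0.257 kb past its TSS, NODAL had 93 H9 tags 13.3 kb upstream, and DPPA2 had 123 H9 tags with a fold of 2.94. The H9 peaks at NANOG and PRDM14 overlapped NT2/D1 OCT4 peaks, and that at NANOG lay 56.9 kb from the nearest NT2/D1 SOX2 summit. PRDM14 also lies nearest the shared region 93.7 kb away described above, so its lack of an NT2/D1 peak depends on the 50 kb limit. CDH1, FGF4, KLF4, LIN28A and MYCN had an NT2/D1 peak and no H9 peak within 50 kb, with 11 (FGF4) to 22 tags (LIN28A). At LIN28A, which encodes an inhibitor of let-7 maturation, the NT2/D1 peak lay 1.98 kb from the TSS and overlapped NT2/D1 OCT4 and NANOG peaks. SALL1 had peaks of both lines whose closest summits lay 1.86 kb apart, and ESRRB had none.

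Signalling genes were often near shared regions, counting ligands, receptors, targets and inhibitors together. Shared regions lay near 11 of 25 genes listed for NODAL, TGF-beta and BMP signalling (44.0%), 7 of 18 of the FGF and ERK list (38.9%) and 11 of 26 of the WNT list (42.3%), beside 7.45% of all listed genes. LEFTY1 and LEFTY2, secreted NODAL inhibitors that belong to the core list too, had 93 and 45 NT2/D1 tags and 304 and 287 H9 tags. Other genes with shared regions also stand in several lists, such as CRIPTO, GDF3, TCF7L1, DNMT3B, JARID2, SOX2 and EOMES. The shares of the lists are therefore not independent of each other. SMAD7, an intracellular inhibitor, had 75 NT2/D1 tags and 411 H9 tags 8.92 kb from its TSS in NT2/D1. The ligand gene BMP7 had 53 NT2/D1 tags with a fold of 9.91 and 240 H9 tags with a fold of 34.9. DUSP6, which encodes an ERK phosphatase, had 113 NT2/D1 tags and 336 H9 tags (chr12:89743576-89744968 in NT2/D1). SPRED2, an inhibitor gene of the pathway, had 42 and 143 tags, and the receptor gene FGFR1 33 and 198, in NT2/D1 and H9 in that order. In the WNT list, SFRP2, a secreted antagonist gene, had 48 NT2/D1 tags and 234 H9 tags 1.04 kb upstream in NT2/D1, the ligand gene WNT3 had 31 and 205, and FZD7, a receptor gene, had 23 and 158. WNT5B had peaks of both lines but no shared region.

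Genes of other lineages also had shared regions. They lay near 10 of 32 neural genes (31.3%), 4 of 20 mesendoderm genes (20%) and 3 of 14 trophectoderm genes (21.4%), beside 7.45% of all listed genes. Of the 32 neural genes, 22 had an NT2/D1 peak (68.8%) and 27 an H9 peak (84.4%), beside 55.8% and 34.0% of all listed genes. OTX2, a forebrain homeobox gene, had a region at its TSS with 58 tags (fold 36.1) in NT2/D1 (chr14:57272517-57272987) and 248 tags (fold 22.6) in H9. NES, which encodes the neural progenitor filament nestin, had 51 NT2/D1 tags and 133 H9 tags, and FEZF2, a forebrain zinc finger gene, had 57 and 68. EOMES, a T-box gene of mesendoderm and trophoblast, had 57 NT2/D1 tags and 117 H9 tags 6.24 kb upstream in NT2/D1. KDR, a VEGF receptor gene, had 31 and 104. CDX2, the trophectoderm homeobox gene, had 63 NT2/D1 tags and 244 H9 tags 2.69 kb from its TSS. HAND1, TEAD4 and KRT7 had no shared region.

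Within the SOX family 6 of 16 listed genes had a shared region (37.5%), and the value over all listed genes, 7.45%, also stands beside each share that follows here. SOX13 had 65 NT2/D1 tags and 127 H9 tags, SOX21, a neural SOX gene, 40 and 137, and SOX6 36 and 241. Shared regions lay near 9 of 26 chromatin regulators (34.6%), led by PHC1, a Polycomb subunit gene, with 88 NT2/D1 tags and 234 H9 tags, KDM4A, a histone demethylase gene, with 78 and 223, and REST, a repressor of neuronal genes, with 47 and 185 at 0.134 kb from its TSS in NT2/D1. Of the germ cell genes, 3 of 19 had one (15.8%). DPPA5 held 74 NT2/D1 tags and 297 H9 tags, TFAP2C held 29 and 114, DMRT1 held 20 and 69, and STK31 had no shared region. The lists for unrelated tissues had 1 of 16 hepatocyte genes (6.25%) and 3 of 13 muscle genes (23.1%). CYP1A2 was the hepatocyte gene, with 39 NT2/D1 tags and 75 H9 tags, while APOB, PCK1 and SERPINA1 had peaks but no shared region within 50 kb. The muscle genes included MYF5, with 10 and 78 tags, and MYL2, while MYF6 and TNNT2 had none. The muscle share rests on 13 genes and lay above the 20% of mesendoderm and the 21.4% of trophectoderm genes.

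Shared regions also lay near the host transcripts of microRNA genes. The region 8.32 kb from the TSS of MIR9-2HG held 89 tags (fold 31.1) in NT2/D1 (chr5:87960202-87960831) and 515 tags (fold 41.5) in H9, and a second region 11.7 kb away held 10 NT2/D1 tags and 54 H9 tags. The region 47.2 kb from the TSS of MIR99AHG held 87 tags (fold 35.7) in NT2/D1 (chr21:17613864-17614414) and 180 tags (fold 29.9) in H9. MIR9-2HG hosts miR-9, a microRNA of neural progenitors, and MIR99AHG hosts miR-99a, let-7c and miR-125b. let-7 is the family whose maturation LIN28 proteins block. The mature RNAs are printed from RefSeq to show what these loci encode, 5′ to 3′ with the seed (bases 2 to 8) in capitals, and the 4 seeds differ.
hsa-miR-9-5p: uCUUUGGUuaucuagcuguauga
hsa-miR-99a-5p: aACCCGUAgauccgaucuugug
hsa-let-7c-5p: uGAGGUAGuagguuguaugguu
hsa-miR-125b-5p: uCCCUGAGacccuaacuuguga

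The share of shared peaks moved with the number of peaks on a chromosome. NT2/D1 had 5.005 SOX2 peaks per H9 peak on chromosome 21 and 4.19 on chromosome 1, and 0.548 on chromosome 6. On chromosome 21, 5.14% of NT2/D1 peaks and 25.7% of H9 peaks (20.3 to 32.0) were shared. On chromosome 6 it was 22.8% of NT2/D1 peaks and 12.2% of H9 peaks. Across 23 chromosomes, Spearman's rho between the NT2/D1 to H9 ratio of peak numbers and the share shared was -0.984 for NT2/D1 peaks and 0.819 for H9 peaks. For H9 peaks of 100 tags or more it was 0.562. The ratio enters the shares by construction, and the values are a description with no p.

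**Figure D5:**
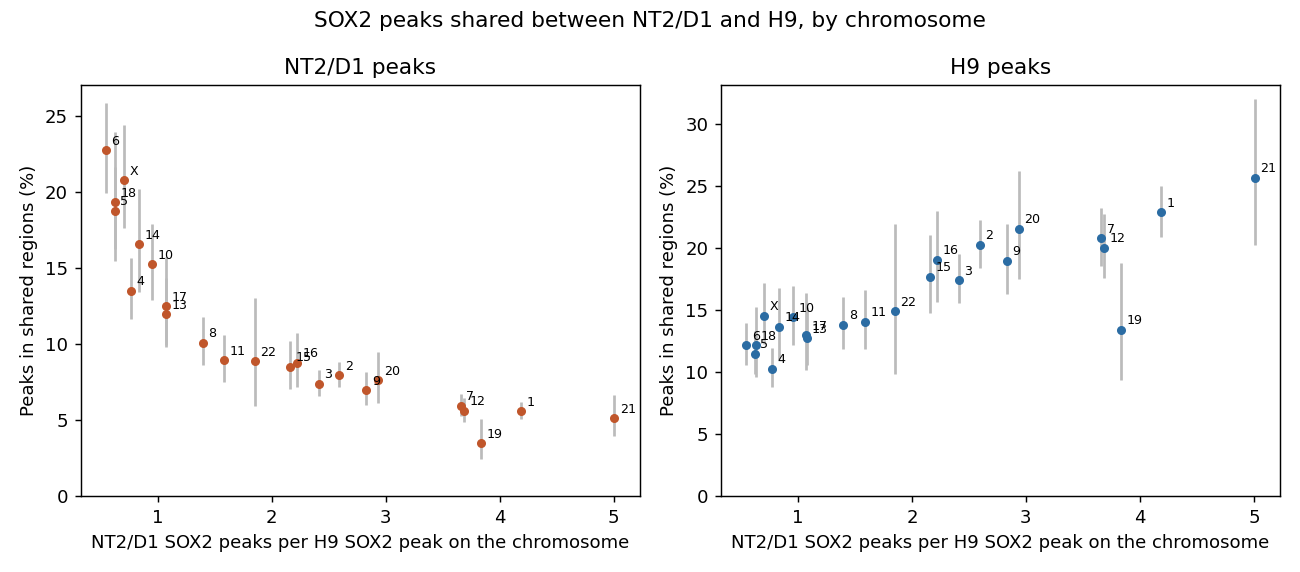
Each point is a chromosome (1 to 22 and X), placed by the number of NT2/D1 SOX2 peaks per H9 SOX2 peak (horizontal) and by the percentage of its NT2/D1 peaks (left) or H9 peaks (right) that lie in shared regions, with 95% Wilson intervals. The NT2/D1 share is 22.8% on chromosome 6, at 0.548 NT2/D1 peaks per H9 peak, and 5.14% on chromosome 21, at 5.005.

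Peak numbers also differed over long stretches within chromosomes. In 266 windows of 10 Mb with at least 40 H9 SOX2 peaks, the number of NT2/D1 peaks per H9 peak had a median of 1.58 (quartiles 0.657 and 2.96) and ran from 0.0156 to 9.79. The lowest window was at 80 to 90 Mb of chromosome 8, with 1 NT2/D1 peak and 64 H9 peaks, and the highest at 30 to 40 Mb of chromosome 1, with 509 and 52. The other factors differed in the same direction in both windows. The lowest held 14 OCT4 and 2 NANOG peaks in NT2/D1, against 77 and 93 in H9. The highest held 366 OCT4 and 494 NANOG peaks in NT2/D1, against 118 and 117 in H9. An interval of chromosome 8 from 78620919 to 93633497 (15.01 Mb) was picked after the windows had been seen, with NT2/D1 SOX2 summits as its ends. It held 1 NT2/D1 SOX2 peak, a count set by that choice, and 107 H9 SOX2 peaks. That NT2/D1 peak, 53.6 kb upstream of the TSS of SNX16, was shared and had 24 tags and a fold of 18.7. Other NT2/D1 lists had peaks in the interval, 28 for OCT4 and 5 for NANOG, against 129 and 164 in H9. The H9-only SOX2 peaks there with most tags were nearest RALYL with 180 tags, RIPK2 with 136, PIP4P2 with 134 and CALB1 with 132. Those at RALYL, PIP4P2 and CALB1 overlapped an NT2/D1 OCT4 peak, and that at RIPK2 did not. Whether the NT2/D1 SOX2 library can give peaks there at the usual rate was not tested.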

How the data were processed

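SOX2, OCT4 and NANOG ChIP-seq peak lists of NT2/D1 and H9 were used, with 1 library each. Libraries were grouped by their titles. Per the file headers, the authors called peaks with MACS for each library against an IgG library at a p-value cutoff of 0.001, with a tag size of 50. Neither MACS version nor aligner is stated: not given in the sources used here. Coordinates are in hg19, according to the submitters' processing notes. The deposited tag count per peak is raw, the deposited fold enrichment is a ratio made by the authors, and the deposited FDR is in percent. FDR was not used, because it rises with score in the NT2/D1 SOX2 list. The deposited score is taken to be 10 times the −log10 p-value, since no peak is below 30.

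Peaks were merged at 1 bp of overlap, and the rank of a peak is its percentile in its own list. The authors' gene columns gave the nearest listed TSS, and RefSeq accessions gave current symbols (GRCh38.p14, names only). Python 3.11.15, pandas 2.3.3, SciPy 1.17.1 and matplotlib 3.10.9 were used, and the merging was checked on simulated intervals. The members, gene lists and rules were chosen with earlier results of these data known.

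Named genes are those nearest to regions on chromosomes 1 to 22 and X, with peaks up to the 99th width percentile: the 10 shared regions with the highest lower tag percentile, the 10 NT2/D1-only and 10 H9-only regions with the highest tag percentile, and the 5 shared regions with the largest percentile difference in each direction in the upper 10% of a list. The rule adds all core pluripotency genes and up to 4 genes of each other list. Gene-start regions, clusters, microRNA hosts, high-fold peaks and the chromosome 8 interval were chosen after their values were seen. The alternatives were other overlap rules, list lengths, score limits, ranks, gene distances and exchanged library labels. IgG controls entered through the authors' peak calling alone. The labels give 2 IgG samples, but the header of the NT2/D1 OCT4 list gives a control of another size than those of the other NT2/D1 lists.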

Additional observations from a re-analysis of the deposited data

How the results depend on the processing

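No paired analysis was possible because each line had 1 SOX2 library. Of 80 values recomputed, 36 stayed within the 95% interval or 1.5 times the count reported, and 44 moved. No direction between shared and unshared peaks in rank or in overlap with NT2/D1 OCT4 turned round under the alternatives that changed the classes. With summits within 200 bp, 7.39% of NT2/D1 and 14.7% of H9 peaks were shared, 84.2% and 82.6% of the shared peaks were in the upper 50% of their list by tags (81.9% and 81.1% as reported), NT2/D1 OCT4 overlapped 78.0% of shared and 5.76% of NT2/D1-only peaks, and NT2/D1 NANOG 53.8% of shared and 5.02% of H9-only peaks. With lists of equal length, 13.4% of NT2/D1 and 13.1% of H9 peaks were shared, with 76.3% and 83.6% of them in the upper 50%. Within 1 kb of a TSS lay 3.78% of NT2/D1-only peaks. NT2/D1 OCT4 then overlapped 77.8% of shared, 7.13% of NT2/D1-only and 24.96% of H9-only peaks, and NANOG 58.2%, 15.3% and 5.22%. In the upper 50% of each list by score, 11.2% of NT2/D1 and 21.9% of H9 peaks were shared, with 79.1% and 75.4% of them in the upper 50% by tags. Within 1 kb of a TSS lay 2.64% of shared and 3.81% of NT2/D1-only peaks, and 3.16% of shared and 3.60% of H9-only peaks. NT2/D1 OCT4 overlapped 82.0% of shared, 8.38% of NT2/D1-only and 36.8% of H9-only peaks, NANOG 62.3%, 15.8% and 7.89%, and 1489 genes had peaks of both lines. Ranked by score, 80.3% of shared NT2/D1 peaks were in the upper 50%, and ranked by fold 74.9%. Within 5 kb, 492 genes had peaks of both lines and 292 a shared region. With the NT2/D1 libraries exchanged, OCT4 had 51.0%, 11.3% and 4.61% of shared, NT2/D1-only and H9-only peaks, and NANOG 73.5%, 5.41% and 23.6%. Core genes with a shared region numbered 20 under these overlap, length and score alternatives and 17 without the widest 1% of peaks. The cause of these shifts was not tested beyond the smaller lists themselves. The fewest tags in a listed peak were 8 in NT2/D1 and 16 in H9, and what depth limits was not tested.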

Other observations

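On chromosome 6, H9 SOX2 peaks were dense at the histone gene cluster where NT2/D1 had none. Between neighbouring NT2/D1 SOX2 summits at 26167966 and 26337239, a span of 169 kb, 23 H9 SOX2 peaks were listed, and for 21 of them the nearest gene was a histone gene, such as H3C4, H4C4, H2BC6 and H1-3. Their median was 110 tags, but the median fold was 3.74, and 13 lay within 1 kb of a TSS. H9 OCT4 peaks overlapped 21 of the 23, H9 NANOG peaks 18 and NT2/D1 OCT4 peaks 5. Histone genes of a class are near-identical copies, so tags may be placed at more than 1 of them. A span from 26533243 to 27182906 held 25 H9 SOX2 peaks and 0 NT2/D1 SOX2 peaks, with a median of 60 tags and a fold of 4.05. In the span from 28426108 to 28806123, GPX5, GPX6, SCAND3 and TRIM27 were the nearest genes. It held 26 H9 and 0 NT2/D1 SOX2 peaks, with 58.5 tags and a fold of 4.63. Each span was drawn between neighbouring NT2/D1 SOX2 summits, so the 0 follows from how it was drawn. In the same order of spans, OCT4 peaks numbered 8, 12 and 12 in NT2/D1 and 23, 38 and 33 in H9. NANOG peaks numbered 1 in each span in NT2/D1 and 17, 22 and 20 in H9. These spans were chosen after the peak numbers had been seen.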
